A study of Rattus norvegicus with 2 samples.

Results

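Tissue inhibitors of metalloproteinases (TIMPs) and the matrix metalloproteinases (MMPs) they restrain were examined in the rat basilar artery, on 1 array after ligation of both common carotid arteries (Ligation) and 1 array after a sham operation (Sham). The set held 10 genes chosen by name, with earlier results of these data known. They were the inhibitors Timp1, Timp2, Timp3, Timp4 and Reck and the proteases Mmp2, Mmp3, Mmp9, Mmp14 and Mmp15. Of these, 9 had a named probe set, out of 15037 named genes in all, and each was read by 1 probe set. No probe set was named Reck in the annotation used here, so no value is given for this membrane-anchored MMP inhibitor. Both groups were male Sprague-Dawley rats, aged 13 months in the sample labels, and no genetic change was described for either. In Ligation rats both carotids were tied, which leaves the vertebral arteries to feed the brain through the basilar artery, and in Sham rats they were only exposed. The arteries were taken after 4 weeks, following perfusion with buffered saline, and equal amounts of RNA from 4 rats were pooled for each Clariom S array. With 1 pool per group there was no replicate, so no test, SD or p-value could be given, and every difference lies between 2 pools.

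MMPs are zinc-dependent endopeptidases that cut collagens, elastin, laminins and other matrix proteins. They are made as inactive proenzymes, most are secreted, and a subgroup is held at the cell surface. TIMPs bind the catalytic site of active MMPs and block it, and Timp2 also takes part in the activation of pro-Mmp2 by Mmp14. In arteries the balance of these proteins is known for its part in the turnover of the elastic laminae and the collagen of the wall during changes of flow and after injury.

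The bases just before the transcription start are shown for Timp1 and Timp4, the inhibitors with the largest differences between the arrays, which lay in opposite directions. They were taken from RefSeq (rat build GRCr8), from the minus strand, as 250 bases upstream of the start that the promoter table gives, at chrX:3771123-3771372 for Timp1 and chr4:149985205-149985454 for Timp4. For both genes this start is not the outermost end of the annotated gene. Capitals mark matches on either strand to TGAGTCA or TGAGTAA (AP-1 sites), AGGAAG (a site of Ets factors), GGGCGG (Sp1) and TATAAA, none of which overlapped another here.
Timp1: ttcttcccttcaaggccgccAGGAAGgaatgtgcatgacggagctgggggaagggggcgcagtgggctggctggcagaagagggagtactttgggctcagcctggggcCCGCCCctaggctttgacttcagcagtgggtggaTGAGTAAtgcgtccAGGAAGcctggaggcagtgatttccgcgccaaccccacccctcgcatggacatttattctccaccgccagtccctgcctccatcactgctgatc
Timp4: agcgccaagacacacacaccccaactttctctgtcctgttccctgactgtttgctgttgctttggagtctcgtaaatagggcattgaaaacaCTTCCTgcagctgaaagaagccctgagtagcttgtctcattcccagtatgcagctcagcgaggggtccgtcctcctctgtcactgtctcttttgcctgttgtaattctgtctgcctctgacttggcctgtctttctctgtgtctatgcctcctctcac
The Timp1 window held TGAGTAA at 108 bases before the start, followed after 7 bases by AGGAAG. The search included TGAGTAA as the AP-1 site of Timp1, so this match was set in advance. The rates that follow are background and do not test it. The form TGAGTAA was found in 2.38% of the 33469 upstream windows in the table, TGAGTCA in 4.05%, AGGAAG in 29.5%, GGGCGG in 30.5% and TATAAA in 12.9%. The Timp4 window held 1 match, to AGGAAG, and none to either AP-1 form or to GGGCGG. The windows of Timp2 and Timp3 held GGGCGG, 1 and 3 times, and no other motif of the set. Mmp3 held both AP-1 forms, AGGAAG and TATAAA, and Mmp15 and Reck held GGGCGG alone. No upstream sequence was available for Mmp2, Mmp9 and Mmp14, so these were not searched. A match is a string of letters and was not tested as a binding site.

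The inhibitors did not move as a group. Timp1, a secreted inhibitor of most MMPs, was higher after ligation, Timp4, a secreted inhibitor best known from the heart and vessels, was lower, and Timp2 and Timp3 differed little. Timp1 had a signal intensity of 10137 on the Ligation array against 4041 on the Sham array, a fold of 2.51 and a difference of 1.33 on the log2 scale (Ligation minus Sham). Timp4 had 5717 on Ligation against 21300 on Sham, and was thus 3.73-fold lower, a difference of -1.90. The ratio of the Timp1 signal to the Timp4 signal was thus 9.35-fold higher in the Ligation array. Timp2, an inhibitor that binds both Mmp2 and Mmp14, had 192430 after ligation and 163058 after the sham operation, a fold of 1.18. Timp3, which stays bound to the matrix and also inhibits ADAM and ADAMTS proteases, had 221337 and 179320, a fold of 1.23. Signals of different probe sets are not comparable as amounts, so no order of abundance among the genes is given.

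**Figure D1:**
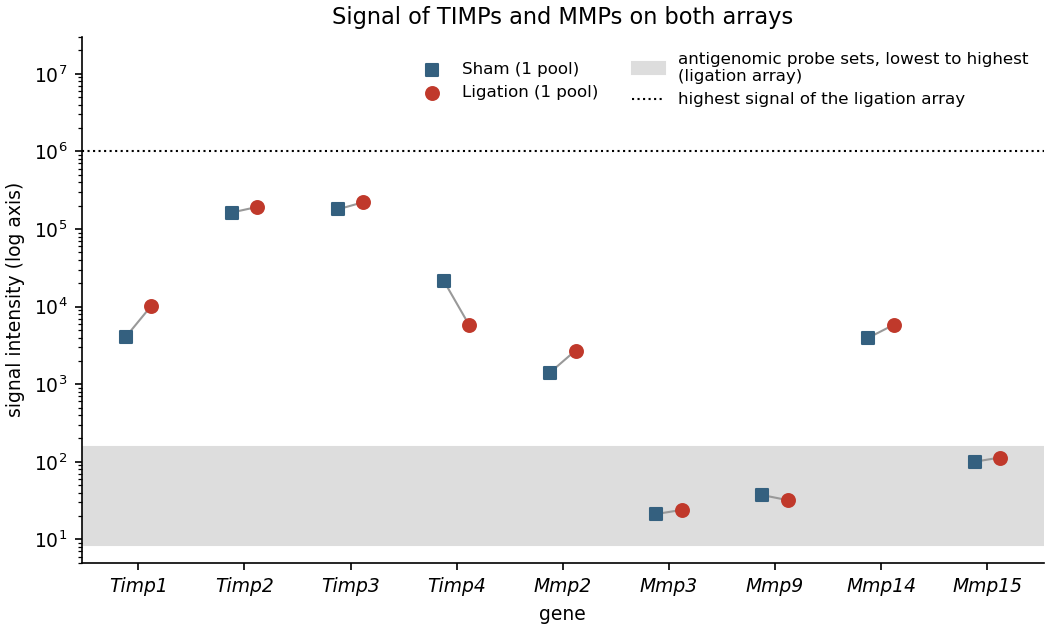
Signal intensity (log axis) of the 9 genes with a named probe set, with Sham as squares and Ligation as circles, 1 pool of rats each. The grey band spans the antigenomic probe sets of the Ligation array and the dotted line is its highest signal; Timp1 goes up from 4041 to 10137, Timp4 goes down from 21300 to 5717, and Mmp3, Mmp9 and Mmp15 lie in the band.

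Among the proteases, Mmp2 and Mmp14 were measured above background and both were higher after ligation, by less than 2-fold. Mmp2, the secreted gelatinase A, gave a signal of 2719 on Ligation against 1416 on Sham, a fold of 1.92 and a log2 difference of 0.94. Mmp14, the membrane-type protease that activates pro-Mmp2, had 5843 and 3976, a fold of 1.47 and a log2 difference of 0.56. Relative to Timp2, the signal of Mmp2 was 1.63-fold higher after ligation and that of Mmp14 1.25-fold higher. Relative to Timp1 the signal of Mmp2 was lower, at 0.77-fold, since Timp1 differed by more. Relative to Timp3 and Timp4 the signal of Mmp2 was higher, at 1.56-fold and 7.15-fold. These ratios compare differences within the same pair of arrays and show unequal change, not amounts of enzyme and inhibitor.

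Mmp9, Mmp3 and Mmp15 could not be told from background on either array. Background was taken from 23 antigenomic probe sets, which match no rat transcript and whose signals reached 157 on Ligation against 151 on Sham. Mmp9, the secreted gelatinase B of neutrophils, macrophages and injured vessels, had a signal of 32.1 after ligation and 37.3 after the sham operation. Mmp3, or stromelysin 1, had 24.0 and 21.3. Mmp15, a membrane-type MMP, had 114 and 100.3, above the median of the antigenomic probe sets in the Ligation array (109) and below it in the Sham array (109). Their log2 differences were -0.22, 0.18 and 0.18. A signal this low does not show that a transcript was absent, and a change in these 3 genes was not detectable on these arrays.

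Of the 9 genes, 1 (Timp1) was over 2-fold higher after ligation and 1 (Timp4) was under 0.5-fold. Over all named genes, 4.04% were over 2-fold higher and 2.97% lay under 0.5-fold. Of the 7751 named genes above background on at least 1 array, 6.19% were over 2-fold higher and 3.50% lay under 0.5-fold, and 6 of the 9 genes belonged to these. The median log2 difference was 0.24 over the 9 genes and 0.43 over these 6, against -0.01 over all named genes and 0.08 over those above background. Counts of 1 among 9 say little about TIMPs and MMPs as a set. Single values placed Timp4 further out than Timp1. Among the 7751 genes above background, Timp4 had the 34th lowest difference, Timp1 the 208th highest, Mmp2 the 558th highest and Mmp14 the 1490th highest. The middle 90% of these genes, from the 5th to the 95th percentile, lay between -0.84 and 1.08, which left Timp1 and Timp4 outside and Mmp2, Mmp14, Timp2 and Timp3 inside. As a rough yardstick, the differences of 12 housekeeping genes had an SD of 0.33 on the log2 scale. It is a spread among genes, which mixes noise of the arrays with real differences between the pools. The differences of Timp2 and Timp3 were smaller than this SD.

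**Figure D2:**
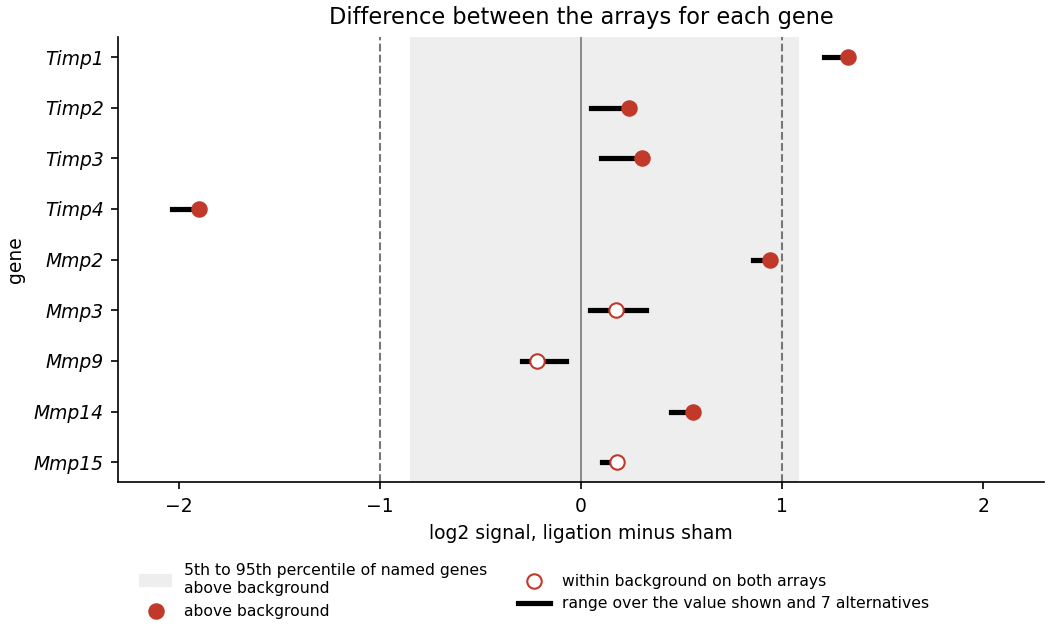
Log2 signal of Ligation minus Sham for each gene; filled points are above background on at least 1 array, open points are within it on both, and black bars span the value shown and 7 alternative settings. Dashed lines mark 2-fold and the grey band runs from -0.84 to 1.08, with Timp1 at 1.33 and Timp4 at -1.90 outside it.

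**Figure D3:**
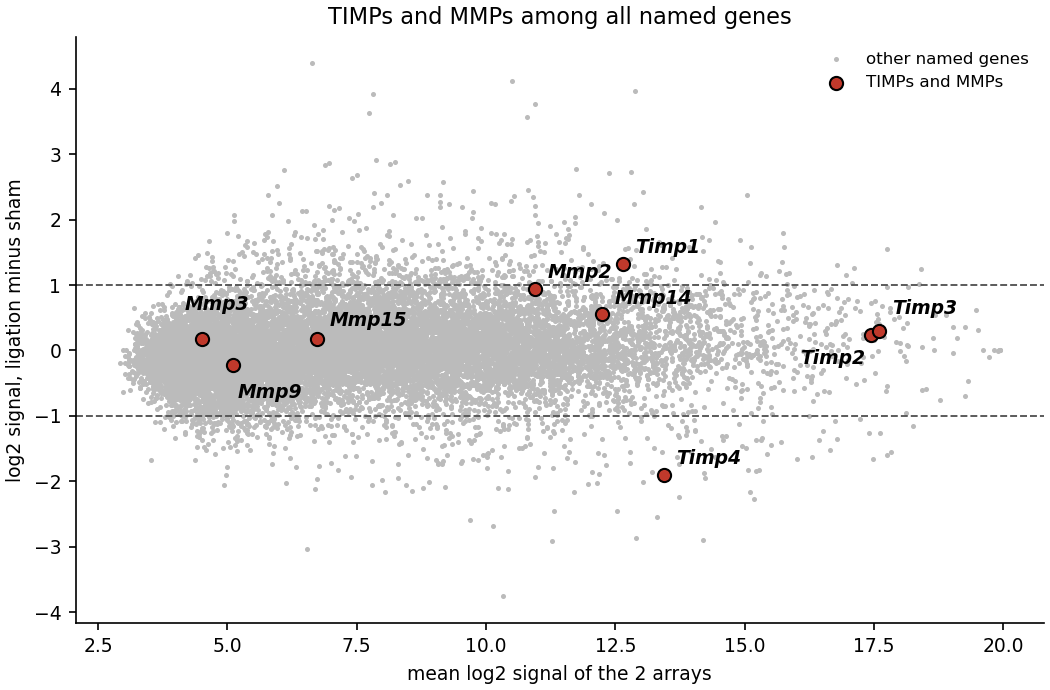
Log2 signal of Ligation minus Sham against the mean log2 signal of both arrays, for all 15037 named genes (grey) and for the TIMPs and MMPs (red). Timp1 lies above and Timp4 below the dashed 2-fold lines, while Timp2 and Timp3 lie at high mean signals near 0 and Mmp3, Mmp9 and Mmp15 at low ones.

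The small differences of Timp2 and Timp3 were found at bright signals. The highest signal was 999960 on the Ligation array and 998300 on Sham. Of the 86 named genes with a mean signal between 100000 and 300000, a range set after the values were seen, 16.3% were past 2-fold in either direction. Between 1000 and 100000, where Timp1, Timp4, Mmp2 and Mmp14 lay, this was 9.52% of 3329 genes. The part of brightness in these differences was not tested.

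In the RefSeq annotation of GRCr8, 3 of the TIMP genes lie inside a synapsin gene, Timp1 in Syn1, Timp4 in Syn2 and Timp3 in Syn3. Synapsins coat synaptic vesicles in neurons. Timp1 and Timp4 run on the strand opposite to their host gene. Of the host genes, only Syn2 was above background. Syn2 gave a signal of 384 on Ligation against 408 on Sham, a log2 difference of -0.09, beside -1.90 for Timp4. Syn1 (39.4 and 38.2) and Syn3 (34.4 and 26.3) were within background on both arrays. Their log2 differences were 0.05 and 0.39, beside 1.33 for Timp1 and 0.30 for Timp3. Whether each probe set reads 1 strand alone is not given in the sources used here.

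The other MMPs were mostly within background, and those that were measured differed in both directions. Of 17 further MMPs, 16 had a named probe set and 6 of these were above background on at least 1 array. Mmp23 was over 2-fold higher after ligation, with a signal of 926 against 357 and a fold of 2.59. Mmp28, or epilysin, was under 0.5-fold, with 766 on Ligation against 1768 on Sham. Mmp17, a membrane-type MMP held by a lipid anchor, was under 0.5-fold too, with 194 and 431. Their log2 differences were 1.38, -1.21 and -1.15. The other 3 above background were Mmp19 with a difference of 0.59, Mmp16 with -0.17 and Mmp11, above background in the Sham array alone, with -0.27. The collagenases Mmp1, Mmp8 and Mmp13 and the macrophage elastase Mmp12 were within background on both arrays, with signals between 10.5 and 41.1. The median difference of the 16 was -0.13.

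The related ADAM proteases, which shed membrane proteins and some of which TIMPs also inhibit, differed by less than 2-fold. Of 12 listed, 6 had a named probe set, 5 of them above background, and the median difference of the 6 was 0.54. Above background, 4 were higher after ligation by 1.41-fold to 1.60-fold. Adam9 gave a signal of 5743 on Ligation against 3591 on Sham, a fold of 1.60. Adam17, the sheddase of tumor necrosis factor that Timp3 inhibits, had 1559 and 1035, a fold of 1.51, and Adam10 had a fold of 1.41. Adam19 had 283 and 287, a difference of -0.02. Of the ADAMTS proteases, which cut proteoglycans and procollagens or bind microfibrils, 10 of 19 had a named probe set. Adamts10, a binding partner of fibrillin, was 2.09-fold higher, with 8815 and 4228, and none was under 0.5-fold. Of these 10, 5 were within background on both arrays. The median was 0.06 over the 10 and 0.02 over the 5 above background.

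In the list of genes around MMP activation, those above background stayed within 2-fold. The list joined the plasminogen system, its inhibitors such as Serpine2, the proprotein convertases and other serine proteases. Of its 15 genes with a named probe set, none passed 2-fold in either direction. However, 9 of them, Plg and Plau included, were within background on both arrays, so a change in these was not detectable. The median was -0.23 over the 15 genes but 0.16 over the 6 above background. Plat, the tissue plasminogen activator, gave a signal of 69619 on Ligation against 43485 on Sham, a fold of 1.60. Furin, the convertase that activates pro-Mmp14, had 1058 and 1252, a fold of 0.84, and Pcsk7 had a fold of 0.73.

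Among partners, receptors and other inhibitors, 20 of 22 genes could be read by a named probe set, and the median was 0.32. Of the 20, 14 were higher after ligation and 6 lower. Past 2-fold were 3 of them, all higher and above background. Among all named genes above background, 6.19% were over 2-fold higher. A2m, a plasma-type inhibitor that traps proteases of many classes, MMPs included, gave a signal of 3067 on Ligation against 1128 on Sham, a fold of 2.72. Thbs1, which encodes thrombospondin 1, a matrix protein that binds Mmp2, had 61792 and 27222, a fold of 2.27. The third was Bsg, or EMMPRIN, a membrane glycoprotein that induces MMPs, with 49113 and 23830 and a fold of 2.06. Lrp1, the endocytic receptor that clears MMPs and their complexes with TIMPs, had a fold of 1.76, and Cd63, a cell surface partner of Timp1, had a fold of 1.27. Bsg, Lrp1 and Cd63 are named after their values were seen. Among the 6 lower genes, the integrin gene Itgb3 had 270 and 470, a fold of 0.58, and Itgb1 had a fold of 0.73. These 2 were also named with their values known.

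Regulators of MMP and TIMP transcription had a median difference of 0.15 over 24 genes. Of these, 6 were within background on both arrays, and the median of the other 18 was 0.18. Past 2-fold were 2 of the 24, both higher after ligation, beside 4.04% of all named genes over 2-fold higher. Fosb, a subunit of the AP-1 factor, gave a signal of 1325 on Ligation against 578 on Sham, a fold of 2.29. Il1b, an inducer of MMPs, had a fold of 3.94 but was within background on both arrays (69.3 and 17.6). Other AP-1 subunits, named after their values were seen, lay on both sides of 0. Jun had a fold of 1.46 and Fos of 1.41, while Junb had 0.97, Jund 0.78 and Fosl2 0.78. Fosl1 had 0.54 but was within background on both arrays. Ccn2, a target of TGF-β that the study discusses, had a fold of 1.51, and Tgfb1 itself, an inducer of Timp1 in many cells, had 1.43.

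Matrix genes whose products these enzymes cut or bind had a median of 0.44 over the 15 of 22 that could be read. Past 2-fold were 3, all higher after ligation, and all 15 were above background on at least 1 array. Among all named genes above background, 6.19% were over 2-fold higher. Fbln5, which encodes the elastic fiber protein fibulin 5, had 18347 on Ligation against 2764 on Sham. Vcan, the proteoglycan versican, had 499 and 147, with the Sham signal within background. Fn1, or fibronectin, was the third, with a fold of 2.38. The collagens lay on both sides of 0, with Col3a1 at 1.89-fold, Col1a1 at 1.79-fold and Col1a2 at 1.57-fold, and with the fibrillar Col5a1 at 0.88-fold, Col4a1 of the basement membrane at 0.91-fold and Col18a1 at 0.78-fold. Laminin chain Lamc1 was at 0.76-fold. The collagens and Lamc1 were picked as examples with their values known.

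**Figure D4:**
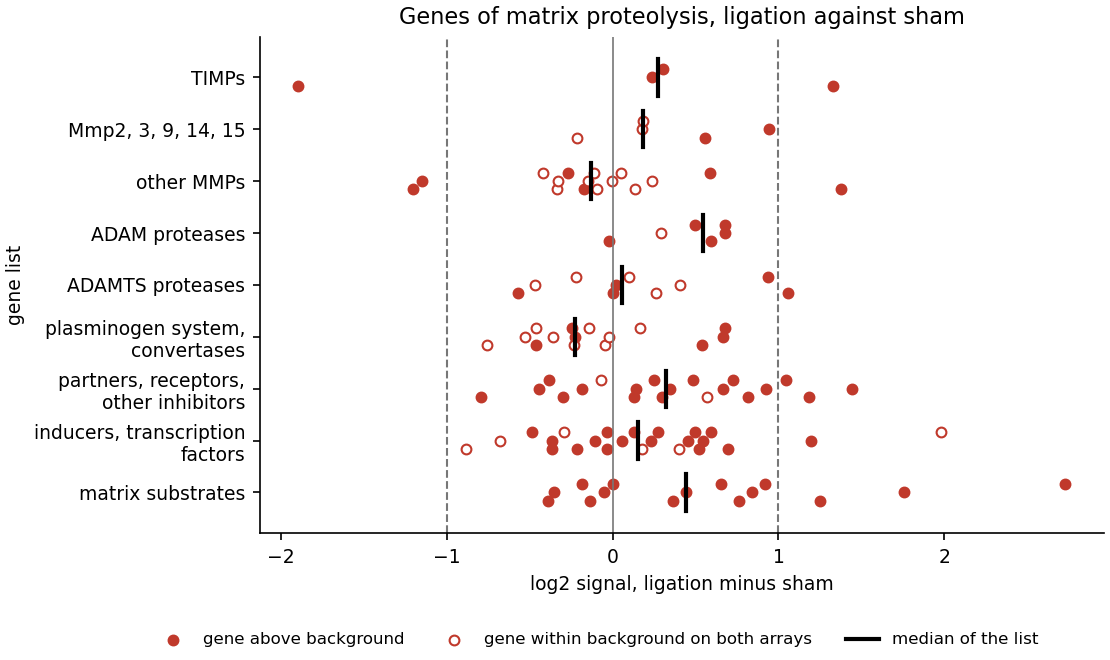
Log2 signal of Ligation minus Sham for each gene of matrix proteolysis with a named probe set, by list; filled points are above background on at least 1 array, open points within it on both, and black ticks are medians. The TIMPs span from -1.90 to 1.33, the 5 MMPs from -0.22 to 0.94, and medians of the other lists run from -0.23 to 0.54.

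Markers of the cell types in the wall and around it differed between the arrays as well. In pooled tissue, fewer cells of a type and less RNA per cell cannot be told apart. Each summed signal follows the brightest probe sets of its list and is not an amount of cells. In the astrocyte sum the brightest was Gja1 (52323 on Ligation and 42280 on Sham), with a fold of 1.24, while Gfap had 15.6 and Aqp4 17.3. Smooth muscle markers, which an artery would give, were bright on both arrays (Acta2 at 553912 and 763073). They do not tell 1 artery from another, nor how much adjoining tissue each pool held. All 5 of these markers were lower after ligation, with differences from -2.27 for Smtn to -0.10 for Tagln, and their summed signal was 1713140 on Ligation against 2387260 on Sham. Timp4, Mmp17 and Mmp28 were lower in the same array. All 5 endothelial markers (differences of 0.57 to 2.78, summed signal 162421 against 89525), all 5 macrophage and microglia markers (0.31 to 1.59, 20532 against 9791, with Cd163 within background on both arrays) and all 5 fibroblast and leptomeningeal markers (0.14 to 0.84, 851822 against 649375) were higher. So were the signals of all 5 astrocyte markers (0.31 to 4.12, 89007 against 44940), all 4 oligodendrocyte markers with a named probe set (up to 3.76, 13744 against 1143) and all 3 of Schwann cells (0.41 to 2.38, 1348 against 467). Of these, Aldh1l1 of astrocytes, Mog of oligodendrocytes and Sox10 of Schwann cells were within background on both arrays. Pericyte markers were mixed, with 4 of 5 higher and Cspg4 at -1.46, and a summed signal of 62128 against 44273. Timp1, Mmp2, Mmp14 and Mmp23 were higher in this array. With 2 arrays every gene is either higher or lower, so a shared direction does not link these genes to a cell type. The part of these cell types in the differences of TIMPs and MMPs was not tested.

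Markers of leukocytes known to store MMPs were within background. All 4 neutrophil markers with a named probe set (S100a8, S100a9, Elane and Camp) were within background on both arrays, with a summed signal of 221 on Ligation against 190 on Sham, as were all 4 mast cell markers (108 and 114). Mmp8 and Mmp9, which neutrophils carry in granules, were within background too. The 4 neuron markers were all above background and differed by -0.17 to 0.40, with sums of 3817 and 3719. Of 3 red cell genes, Hba-a1 and Hbb were lower after ligation, with differences of -0.62 and -0.49, and Alas2 was within background, with a summed signal of 188587 against 287720 for the 3 genes. No marker was listed at 0.

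**Figure D5:**
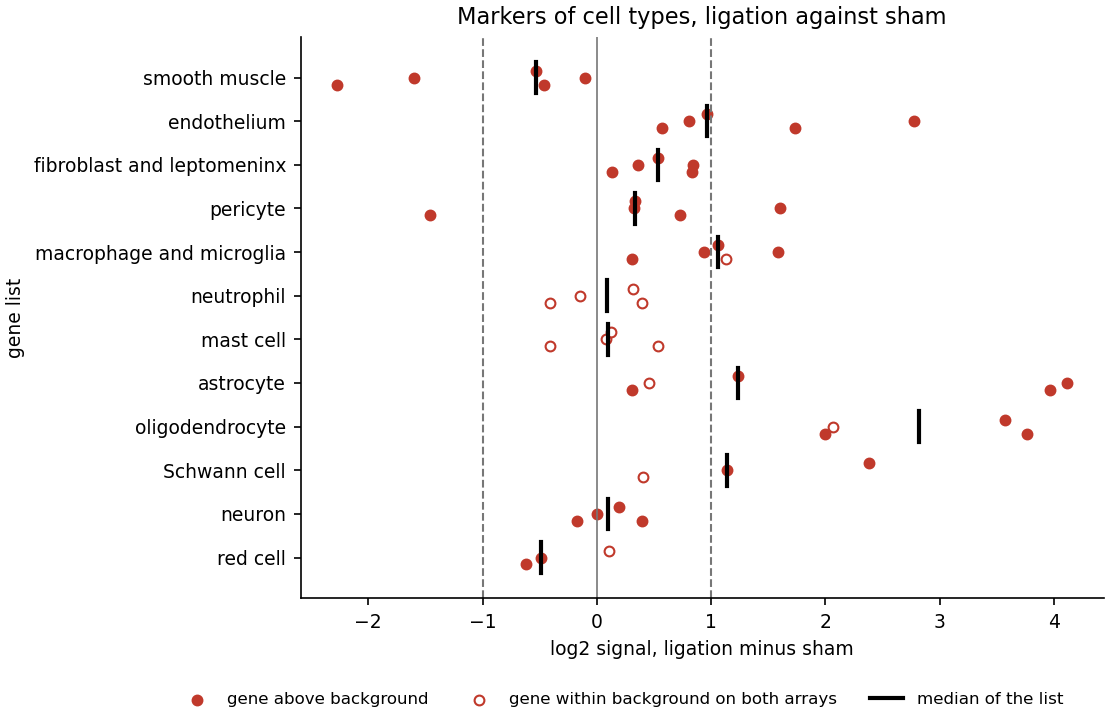
Log2 signal of Ligation minus Sham for markers of 12 cell types, 1 point per gene; filled points are above background on at least 1 array, open points within it on both, and black ticks are medians. Smooth muscle markers lie below 0 (-2.27 to -0.10), endothelial, macrophage, fibroblast, astrocyte, oligodendrocyte and Schwann cell markers above it, and neutrophil and mast cell markers are all open points.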

How the data were processed

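Basilar artery RNA was read on 2 Clariom S rat arrays, 1 pool of 4 rats each, from 50 ng of RNA. The authors deposited a linear signal intensity per probe set. The submitters' processing notes name RMA and Affymetrix Expression Console, and the paper names Microarray Data Analysis Tool Ver. 3.2; the genome build and the annotation are not given in the sources used here. RMA works in log2, while the deposited values run from background to about 999960, so they were read as linear; the step between is not described. Of 23188 gene probe sets (1646 controls left out), 15049 had a symbol, all updated through the Entrez identifier to GRCr8, for 15037 genes. Log2 signals were averaged over the probe sets of a gene and Sham was subtracted from Ligation, with no further scaling. A signal no higher than the brightest antigenomic probe set of its array was called within background. Depth has no meaning for arrays, and their number limits the precision.

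Groups came from the sample titles. The members, the 7 gene lists and the 12 marker lists were chosen with earlier results of these data known. Named by rule were all members, from each list the 2 largest increases and decreases past 2-fold above background (or, with none, the largest each way), and Ccn2; a further gene of the rule is not reported here. Any other gene from the 7 lists was named outside this rule, with its values known. No gene was named for a pattern like that of a member, because 2 arrays give each gene a single difference. Alternatives were median centring, quantile normalization, housekeeping centring, lowess (fraction 0.3), 64 added before the log, the brightest probe set, other thresholds and other background levels. Centring on genes above background, and medians of TIMPs and MMPs apart, were added after the data were seen. The scaling steps were tested on simulated data. The simulated arrays differed by a constant shift, so correction of a shift that depends on brightness was not tested. Tools were Python 3.11.15 with pandas 2.3.3, numpy 2.4.6, matplotlib 3.10.9 and statsmodels 0.14.6. The PCR and rabbit experiments were not analysed here.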

Additional observations from a re-analysis of the deposited data

How the results depend on the processing

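The differences of all 9 genes kept their sign under the 7 alternatives run for each, and none moved by more than the SD of the housekeeping genes (0.33). Centring moves every gene by the same small constant (0.06 for housekeeping centring), so the centring settings could not pass this limit. Mmp3, Mmp9 and Mmp15 were within background, so their signs carry no weight. Timp1 ranged from 1.21 to 1.33 and Timp4 from -2.03 to -1.89, both past 2-fold throughout, and Mmp2 ranged from 0.86 to 0.94, under 2-fold throughout. Timp2 came down to 0.05 and Timp3 to 0.10. The brightest probe set changed nothing, as each gene had 1 probe set. With a threshold of 1.5-fold, 2 members were over it (Timp1 and Mmp2), and with 3-fold 0 were, while Timp4 was past both. The medians of TIMPs alone and MMPs alone were 0.27 and 0.18. The number of genes above background was 6 at the 95th percentile of the antigenomic probe sets and 7 at their median, where Mmp15 was added. No paired analysis was possible because each group has 1 array. The single pool per group, the 8139 probe sets without a name here and the background of 157 and 151 limit what can be said.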
